A study of Mus musculus with 21 samples.

Results

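A set of 8 transcription factor genes that hold or shape the identity of the intestinal epithelium, Cdx1, Cdx2, Hnf4a, Hnf4g, Isx, Klf4, Vdr and Hes1, was followed in RNA sequencing of mouse colon. The genes were chosen by symbol, and all 8 were found among the 24062 genes of the deposited count table. The choice was made with earlier results of these data known: Isx had stood out between the female normal groups, and every comparison that uses those groups gives Isx as a description without a test. Mice were of the C57BL/6 strain and were wild-type or of the App NL-G-F line, called knock-in here, in which the mouse gene for the amyloid precursor protein bears mutations of familial Alzheimer's disease. Tumours followed AOM/DSS, a carcinogen (azoxymethane) given with dextran sulfate sodium, a salt that damages the lining of the colon. Each of 7 groups held 3 libraries: normal colon of wild-type males, knock-in males, wild-type females and knock-in females, and tumours of wild-type males, knock-in males and wild-type females. A knock-in female tumour group is not analysed here. The labels call the normal groups untreated, whereas the series description speaks of tissue next to tumours or of colon without tumours, so whether the normal colon had seen AOM/DSS is not settled. Ages are not given in the sources used here. The study asks what lies behind the different outcomes of the treatment in mice with the App mutations and in males and females.

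The caudal homeobox factors Cdx1 and Cdx2 set the intestinal fate of gut endoderm and keep it in the adult. Hnf4a and Hnf4g are nuclear receptors that act with them at enhancers of enterocyte genes, and Klf4, a zinc finger factor, marks cells that have left the crypt cycle and is needed by goblet cells. Vdr is the receptor of the vitamin D hormone, Isx is a homeobox factor that restrains carotenoid uptake and cleavage in enterocytes, and Hes1 is the main effector of Notch signalling in crypt progenitors, where it holds back the secretory fate.

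Levels are in CPM, counts scaled to a common library total with adjustment by the TMM method. Library totals ran from 3414123 to 26174008 counts, so that 3 counts, taken as the floor, were worth between 0.127 and 0.872 CPM. All 8 factors passed the filter on low counts, which left 15936 genes. Differences were tested with edgeR's quasi-likelihood F test over those genes with Benjamini-Hochberg adjustment, and a gene is said to rise or fall where its adjusted p is under 0.05. The labels do not say that the 3 libraries of a group came from separate animals, so p-values measure the spread between these libraries, which may be technical. In bulk tissue, fewer epithelial cells and less RNA per cell cannot be told apart. Markers of squamous epithelium, a tissue the colon itself lacks, summed to more than 450 CPM in 5 libraries (wild-type male normal replicate 1, knock-in male normal replicate 1, knock-in male tumour replicate 2 and knock-in female normal replicates 1 and b), the highest at 3185 CPM in the tumour. Colon identity showed in Hoxb13, a factor of the distal gut, at group means of 186 to 227 CPM in normal colon, whereas Gata4, a factor of the proximal intestine, was under 1 CPM in every library.

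In tumours of wild-type males 6 of the 8 factors fell and none rose. The 6 were Cdx1, Cdx2, Hnf4a, Hnf4g, Klf4 and Vdr. Over all genes 35.7% were called in this comparison, 19.3% as lower, and libraries of the groups did not overlap for 52.4% of genes and for the same 6 factors. In wild-type females these 6 also fell, of 7 tested, against 49.1% of all genes called, 24.0% called lower and 58.4% without overlap, which held for the 6. In knock-in males 4 of 8 fell, Cdx1, Hnf4a, Klf4 and Vdr, against 20.4% called and 9.97% called lower. There 5 factors, these 4 and Hnf4g, showed no overlap, and neither did 33.6% of all genes. Of the 8, Vdr had the largest fall in each of the 3 comparisons. Without the 5 libraries high in squamous markers the counts were 6 for wild-type males, 6 for wild-type females and 2 in knock-in males. As the plot of levels by library shows, the 9 tumour libraries lay below all 12 normal libraries for Cdx1, Hnf4a, Hnf4g, Klf4 and Vdr, and the ranges overlapped for Cdx2, Isx and Hes1.

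**Figure D1:**
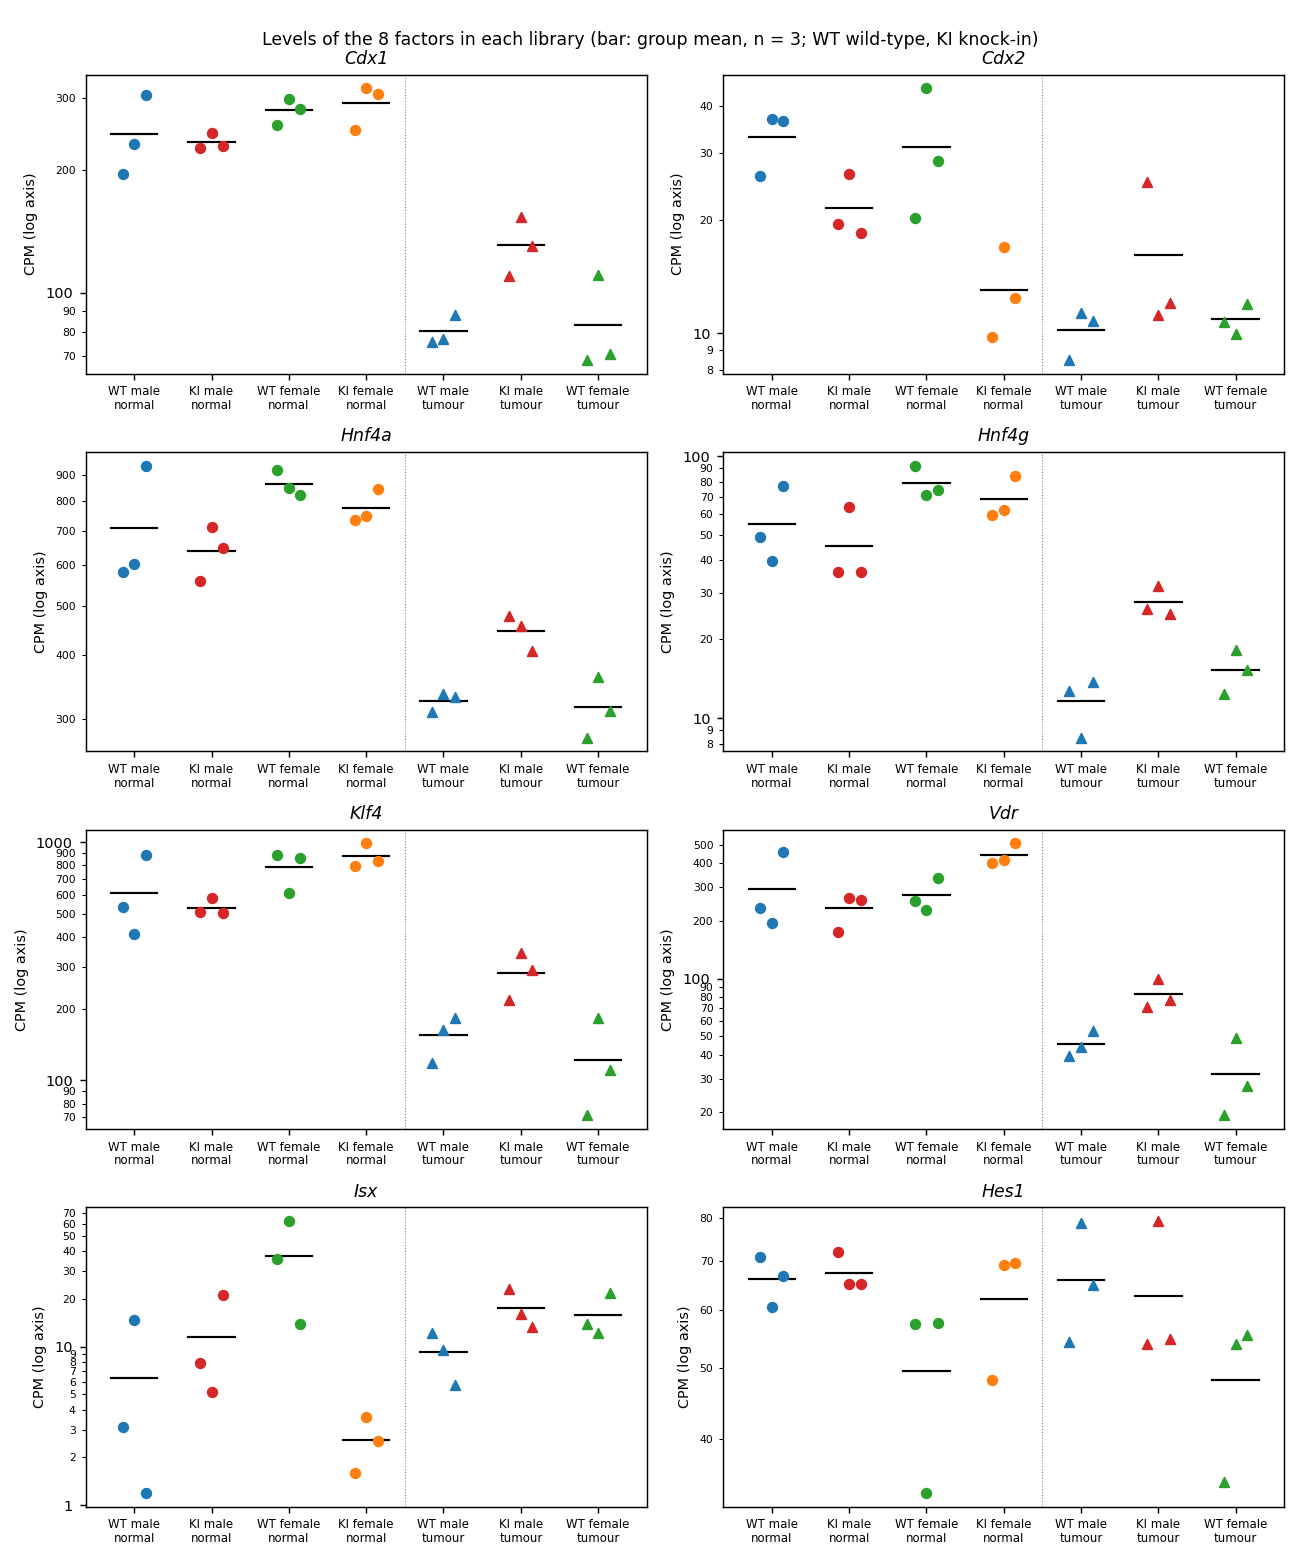
Level of each of the 8 factors in CPM (log axis) in every library, by group, with the group mean of 3 libraries as a bar. Cdx1, Hnf4a, Hnf4g, Klf4 and Vdr are lower in all 9 tumour libraries than in all 12 normal ones, while Isx spreads from 1.19 to 62.2 CPM in normal colon.

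Cdx1 and Cdx2 differed in level and in how closely they followed the tissue. Cdx1 stood at 196, 232 and 307 CPM in normal colon of wild-type males and at 75.8, 77.1 and 88.4 CPM in their tumours. Knock-in males had 227, 247 and 229.7 CPM in normal colon and 110.0, 154 and 130.1 CPM in tumours. Wild-type females had 259, 299 and 283 CPM against 68.4, 110.5 and 70.9 CPM. No tumour library of any group reached the lowest normal library, 196 CPM. On the log2 scale, on which all changes below are given, Cdx1 fell by 1.6 (edgeR adjusted p = 8.98e-06, SE 0.18) in wild-type males, fell by 0.84 (edgeR adjusted p = 0.00519, SE 0.18) in knock-in males and fell by 1.75 (edgeR adjusted p = 8.80e-07, SE 0.18) in wild-type females.

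Cdx2 (chr5:147300805-147307270, minus strand, GRCm38) was the rarer of the pair. Its libraries read 26, 36.9 and 36.4 CPM in normal colon of wild-type males and 8.49, 11.3 and 10.8 CPM in their tumours, without overlap. In knock-in males they read 19.4, 26.4 and 18.4 CPM in normal colon and 25.1, 11.2 and 12 CPM in tumours, where replicate 1 lay within the normal range. Wild-type females had 20.1, 44.6 and 28.6 CPM in normal colon and 10.7, 9.94 and 12 CPM in tumours, again without overlap. Cdx2 fell by 1.71 (edgeR adjusted p = 0.000593, SE 0.32) in wild-type males and fell by 1.5 (edgeR adjusted p = 0.000753, SE 0.32) in wild-type females. In knock-in males it changed by -0.41 (edgeR adjusted p = 0.345, SE 0.30), and without tumour replicate 1 it fell by 0.94 (edgeR adjusted p = 0.0357).

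The 250 bases before the Cdx2 start are shown because Cdx2 is the factor that was called between the genotypes in normal colon. The window comes from RefSeq (GRCm38.p6, chr5:147307250-147307499, minus strand) and is written 5′ to 3′. Capitals mark matches on either strand to GTTAAT, part of the site of HNF1 factors, and to CACCC, a core of sites bound by Klf factors.
Cdx2: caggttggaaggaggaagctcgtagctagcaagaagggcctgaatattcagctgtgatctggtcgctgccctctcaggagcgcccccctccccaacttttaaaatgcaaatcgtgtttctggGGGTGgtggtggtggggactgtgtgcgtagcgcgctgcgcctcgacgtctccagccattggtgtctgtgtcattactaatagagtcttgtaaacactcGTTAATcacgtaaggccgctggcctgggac
Of 32851 RefSeq windows of the same length, 6.43% held GTTAAT and 52% held CACCC. The Cdx2 window held each of them 1 time. It held no match to TTTAT, a core of Cdx sites found in 37.3% of windows, to AGGTCA, a nuclear receptor motif found in 14%, or to TGGGAA, the core bound by Rbpj, found in 21.6%. The Klf4 window held 1 TTTAT and no other of these motifs.

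Hnf4a and Hnf4g both fell in wild-type tumours, by unequal amounts. Hnf4a (chr2:163506808-163572910, plus strand) read 582, 604 and 939.6 CPM in normal colon of wild-type males and 309, 336 and 331 CPM in their tumours. Knock-in males had 558, 714 and 648 CPM against 477, 455 and 408 CPM, and wild-type females 921, 850.0 and 825 CPM against 276, 363 and 311 CPM. The groups of each pair did not overlap. Hnf4a fell by 1.12 (edgeR adjusted p = 4.15e-05, SE 0.15) in wild-type males, fell by 0.52 (edgeR adjusted p = 0.0242, SE 0.15) in knock-in males and fell by 1.45 (edgeR adjusted p = 1.09e-06, SE 0.16) in wild-type females. The call in knock-in males was lost without normal replicate 2 (adjusted p = 0.0505), normal replicate 3 (0.0703) or tumour replicate 3 (0.0827), with a fit of the compared groups alone (0.0699), and without the 5 libraries high in squamous markers (0.0606).

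Hnf4g (chr3:3508030-3658052, plus strand), the paralog of Hnf4a, read 49, 39.7 and 77.1 CPM in normal colon of wild-type males and 12.7, 8.43 and 13.7 CPM in their tumours. Knock-in males had 36.1, 64.1 and 36 CPM against 26, 32 and 25 CPM, and wild-type females 91.9, 71 and 74.3 CPM against 12.4, 18.2 and 15.3 CPM. Again no tumour library reached a normal library of its own pair. Hnf4g fell by 2.2 (edgeR adjusted p = 2.02e-05, SE 0.27) in wild-type males and fell by 2.37 (edgeR adjusted p = 2.39e-06, SE 0.27) in wild-type females. In knock-in males it changed by -0.72 (edgeR adjusted p = 0.0545, SE 0.25), and it passed with DESeq2 (adjusted p = 0.0332) and without normal replicate 1 (edgeR adjusted p = 0.0334).

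The ratio of Hnf4a to Hnf4g within a library does not depend on library scaling. It averaged 13.1 ± 1.84 (SD, n = 3) in normal colon of wild-type males and 29 ± 8.72 in their tumours, and 11 ± 0.971 against 20.6 ± 1.23 in wild-type females. Neither pair of groups overlapped. The highest ratio, in tumour replicate 2 of wild-type males, rests on 29 counts of Hnf4g. In knock-in males the ratio was 14.8 ± 3.43 in normal colon and 16.2 ± 2.02 in tumours, with overlapping libraries. On the log2 scale the tumour ratio was higher by 1.12 in wild-type males, by 0.91 in wild-type females and by 0.15 in knock-in males. Between the genotypes of male tumours, knock-in minus wild-type, it differed by -0.81. The differences without overlap each had a two-sided exact permutation p of 0.1, the smallest that 3 against 3 libraries allow, and of 0.24 after adjustment over 12 ratio tests.

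**Figure D2:**
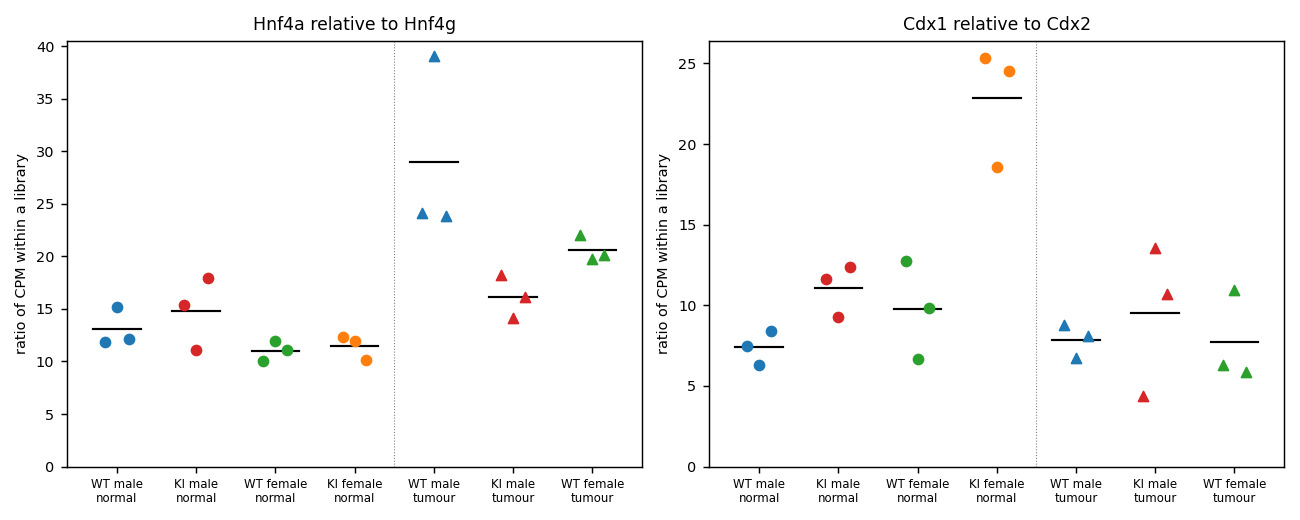
Ratio of CPM within each library for the Hnf4 pair and the Cdx pair, by group, with the group mean of 3 libraries as a bar. The ratio of Hnf4a to Hnf4g is highest in tumours of wild-type males, at a mean of 29, and the ratio of Cdx1 to Cdx2 in normal colon of knock-in females, at 22.8.

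Hnf4a is read from an upstream and a downstream start, and the 250 bases before each are shown because the single count per gene does not separate them. They come from RefSeq (GRCm38.p6, plus strand), at chr2:163506607-163506856 for the upstream start and chr2:163546905-163547154 for the downstream start. Capitals mark CACCC and GTTAAT on either strand.
Hnf4a upstream start: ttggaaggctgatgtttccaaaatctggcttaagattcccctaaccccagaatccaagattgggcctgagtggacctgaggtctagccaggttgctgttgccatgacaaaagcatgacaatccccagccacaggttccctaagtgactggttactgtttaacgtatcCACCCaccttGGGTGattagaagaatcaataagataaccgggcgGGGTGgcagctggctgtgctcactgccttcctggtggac
Hnf4a downstream start: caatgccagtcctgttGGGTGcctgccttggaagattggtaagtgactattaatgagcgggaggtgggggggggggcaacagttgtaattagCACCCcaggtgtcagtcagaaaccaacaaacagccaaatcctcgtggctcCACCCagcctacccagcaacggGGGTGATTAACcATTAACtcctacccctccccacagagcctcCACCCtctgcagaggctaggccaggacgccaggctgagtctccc
The upstream window held 3 CACCC. The downstream window held 5 CACCC, and GTTAAT was found there 2 times. Neither held a match to TTTAT, to AGGTCA or to TGGGAA. Hnf4aos, an antisense RNA of the Hnf4a locus, was at group means of 2.11 to 3.95 CPM and fell by 0.93 (edgeR adjusted p = 0.00708, SE 0.27) in tumours of wild-type females. In the GENCODE annotation the exons of the 8 factors shared 0 bases with exons of another gene.

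Vdr and Klf4 had the widest span among the factors that fell. Vdr (chr15:97854425-97910630, minus strand) read 233, 194 and 458 CPM in normal colon of wild-type males and 39.1, 43.6 and 53.5 CPM in their tumours. Knock-in males had 175, 265 and 258 CPM against 71.1, 99.5 and 77.2 CPM, and wild-type females 254, 227 and 335 CPM against 19.3, 48.6 and 27.3 CPM. Each tumour group lay below its normal group. Vdr fell by 2.7 (edgeR adjusted p = 2.82e-05, SE 0.34) in wild-type males, fell by 1.49 (edgeR adjusted p = 0.00583, SE 0.32) in knock-in males and fell by 3.1 (edgeR adjusted p = 2.55e-06, SE 0.34) in wild-type females. A RefSeq window before a Vdr start (GRCm38.p6, chr15:97908297-97908546, minus strand) is shown because Vdr fell furthest. It lies inside the gene span given above, so the outermost annotated start has no window here. The window shown held none of the 5 motifs searched, so that no base is in capitals.
Vdr: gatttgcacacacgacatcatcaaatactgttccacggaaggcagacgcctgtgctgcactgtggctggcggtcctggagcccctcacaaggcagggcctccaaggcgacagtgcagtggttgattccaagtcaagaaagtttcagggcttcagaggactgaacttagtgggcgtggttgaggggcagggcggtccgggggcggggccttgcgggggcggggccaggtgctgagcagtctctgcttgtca

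Klf4 (chr4:55527143-55532466, minus strand) read 532, 412 and 885 CPM in normal colon of wild-type males and 118, 163 and 183 CPM in their tumours. Knock-in males had 507, 585 and 502 CPM against 216, 342 and 291 CPM, and wild-type females 886, 612 and 857 CPM against 71.4, 183 and 111 CPM. The groups of each pair were apart, and no wild-type tumour library reached a knock-in one. Klf4 fell by 1.98 (edgeR adjusted p = 0.000168, SE 0.31) in wild-type males, fell by 0.91 (edgeR adjusted p = 0.0422, SE 0.30) in knock-in males and fell by 2.69 (edgeR adjusted p = 4.29e-06, SE 0.32) in wild-type females. The call in knock-in males was lost without the filter on low counts (adjusted p = 0.0587), without the 5 libraries high in squamous markers (0.131), and without any of normal replicates 1, 2 and 3 and tumour replicates 1 and 3 (0.0557 to 0.109).

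Genes tied to Vdr and Klf4 were read as lists. Of 10 tested partners and targets of Vdr, 4 fell and 1 rose in wild-type male tumours, where 35.7% of all genes were called, with a list median of 0.014 beside 0.0054 over all genes. Slc30a10, a manganese exporter, fell by 5.11 (edgeR adjusted p = 0.00406, SE 1.21), from 11.1 ± 6.25 to 0.243 ± 0.210 CPM (SD, n = 3), the latter resting on at most 5 counts per library. The sugar phosphate exchanger Slc37a2 fell by 3.01 (edgeR adjusted p = 0.00320, SE 0.68). Cubn, the receptor that takes up vitamin D with its carrier protein in kidney, rose by 2.0 (edgeR adjusted p = 0.0107, SE 0.55). In wild-type females 4 fell and 2 rose, where 49.1% of all genes were called, and Slc30a10 was at least 61.2-fold lower in tumours, against the floor of 3 counts per library. In knock-in males 3 of 10 fell, Slc30a10 and the retinoid X receptors Rxra and Rxrb, which pair with Vdr, where 20.4% of all genes were called. Trpv6 and S100g, also on the list, were not called in any of these comparisons. Trpv6 changed by 0.24, 0.24 and -0.18 and S100g by 0.068, -1.16 and 0.24 in wild-type males, wild-type females and knock-in males. Of 12 relatives of Klf4 and genes it regulates, 5 fell in tumours of wild-type males, 7 in those of wild-type females and 3 in those of knock-in males, and none rose, where 19.3%, 24.0% and 9.97% of all genes were called lower, with medians of -0.36, -0.69 and -0.25. Tff3, a peptide of goblet cell mucus, fell by 2.14, fell by 2.73 and fell by 1.57 in the same order (edgeR adjusted p = 3.89e-05, 1.39e-06 and 0.00262).

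Hes1 (chr16:30064384-30067796, plus strand) was not called in any of the 12 comparisons with edgeR, had no unadjusted p under 0.05, and was not called by DESeq2. It read 70.9, 60.6 and 66.7 CPM in normal colon of wild-type males and 54.2, 78.8 and 64.8 CPM in their tumours. Knock-in males had 71.9, 65 and 65.1 CPM against 53.9, 79.2 and 54.8 CPM, and wild-type females 57.3, 33.8 and 57.6 CPM against 35, 54 and 55.5 CPM. Tumour and normal libraries overlapped in each pair. The change in tumours was -0.012 (edgeR adjusted p = 0.973, SE 0.22) for wild-type males, -0.10 (edgeR adjusted p = 0.763, SE 0.22) for knock-in males and -0.043 (edgeR adjusted p = 0.890, SE 0.22) for wild-type females.

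With both directions pooled, the Notch genes around Hes1 were called about as often as other genes in wild-type tumours, but mostly as higher. In tumours of wild-type males 6 of 18 tested rose and 1 fell, where 35.7% of all genes were called, 19.3% as lower. The list median was 0.27 beside 0.0054 over all genes. Hey1, another Notch effector, rose by 1.55 (edgeR adjusted p = 0.00230, SE 0.35), and the ligand Jag2 rose by 1.44 (edgeR adjusted p = 0.00799, SE 0.38). Hey2, Heyl and Nrarp, also on the list, changed by -1.6, -0.66 and -0.61 and were not called. Atoh1, the secretory lineage factor that Hes1 represses, fell by 2.46 (edgeR adjusted p = 0.000257, SE 0.41). In tumours of wild-type females 8 rose and 2 fell, where 49.1% of all genes were called, 24.0% as lower, with a median of 0.34. Those that fell were Atoh1 and the ligand Dll1. Hey1 rose by 3.08 there and Jag2 rose by 2.85, while Hey2, Heyl and Nrarp were again not called, at -0.13, 0.30 and -0.30. In tumours of knock-in males the single call was Atoh1, which fell by 1.45 (edgeR adjusted p = 0.0151, SE 0.38), where 20.4% of all genes were called. In normal colon 8 of the 18 were higher in knock-in females and none lower, where 16.0% of all genes were called, with a median of 0.45 beside 0.015, among them the receptor Notch3, which rose by 2.21 (edgeR adjusted p = 0.000126, SE 0.29), while Hes1 changed by 0.32 (edgeR adjusted p = 0.333). Summed smooth muscle markers were 2108 to 4935 CPM in these wild-type and 7360 to 10398 CPM in these knock-in libraries. Fibroblast and endothelial sums were also higher in knock-in females. The part of these cells in the Notch genes was not tested.

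Isx (chr8:74873173-74893506, plus strand) varied most between libraries, by 52.2-fold from the lowest to the highest. It read 36, 62.2 and 13.9 CPM in normal colon of wild-type females and 1.61, 3.59 and 2.52 CPM in that of knock-in females. In males it read 3.12, 14.7 and 1.19 CPM in wild-type and 7.94, 5.19 and 21.3 CPM in knock-in normal colon. The female genotypes did not overlap, and the male ones did. The tumours read 12.3, 9.6 and 5.71 CPM in wild-type males, 23.1, 16.2 and 13.4 CPM in knock-in males and 14, 12.2 and 21.8 CPM in wild-type females. The tumour libraries thus spread from 5.71 to 23.1 CPM, within the range of normal ones. As a description, Isx was 14.9-fold lower in knock-in females, at a log2 difference of -3.9 (SE 0.80). The tests that did not use those groups gave 0.54 (edgeR adjusted p = 0.606, SE 0.74) for tumours against normal colon in wild-type males and 0.63 (edgeR adjusted p = 0.544, SE 0.70) in knock-in males. Without normal replicate 2 of wild-type males, their highest, the former was 2.0 (edgeR adjusted p = 0.0403).

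The RefSeq window before the Isx start (GRCm38.p6, chr8:74872924-74873173, plus strand) is shown because Isx stands apart from the other factors in its levels. Like that of Vdr it held none of the 5 motifs.
Isx: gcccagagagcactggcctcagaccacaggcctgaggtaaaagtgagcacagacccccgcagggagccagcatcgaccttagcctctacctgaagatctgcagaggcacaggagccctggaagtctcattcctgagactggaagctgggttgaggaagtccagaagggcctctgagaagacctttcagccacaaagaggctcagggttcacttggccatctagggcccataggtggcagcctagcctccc
Genes of vitamin A handling, the pathway on which Isx acts, were read beside it in female normal colon. Of 11 tested, 2 were higher in knock-in females and none lower, where 16.0% of all genes were called, with a list median of 0.26 beside 0.015. Scarb1, the carotenoid uptake receptor that Isx represses, rose by 0.67 (edgeR adjusted p = 0.00525, SE 0.15), and Cyp26b1, which degrades retinoic acid, rose by 2.67 (edgeR adjusted p = 0.00227, SE 0.51). Bco1, the carotenoid cleaving enzyme that Isx represses, changed by -0.39 (edgeR adjusted p = 0.449, SE 0.33).

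Markers of other cells differed between the same female groups, where 16.0% of all genes were called. Summed smooth muscle markers ran from 2108 to 4935 CPM in wild-type and from 7360.0 to 10398 CPM in knock-in females, and 5 of 10 rose. Fibroblast markers ran from 1502 to 1816 and from 3299 to 4248 CPM, and 4 of 8 rose. Endothelial markers ran from 70.2 to 98.3 and from 164 to 180.2 CPM, and 4 of 5 rose. Squamous markers ran from 3.09 to 5.29 and from 3.03 to 648 CPM. No marker of these lists was at 0 in either group. The squamous sum was 3.03 CPM in knock-in replicate a, where Isx was 3.59 CPM. The part of smooth muscle, fibroblasts, endothelium and squamous epithelium in the difference was not tested. None of 11 tested posterior Hox genes, which mark position along the gut, was called between these groups with edgeR, none had an unadjusted p under 0.05, and none was called by DESeq2, at a median of 0.25. The Hoxd genes varied widely, with an SE of 0.77 to 1.16 between the sexes of knock-in normal colon in the same fit. The lack of calls thus does not show that the groups were taken from the same position. In tumours some posterior Hox genes were called. Hoxb13 fell by 0.64, 0.98 and 0.95 in wild-type males, knock-in males and wild-type females (edgeR adjusted p = 0.0190, 0.00419 and 0.000743). Hoxa9 rose by 0.80, 0.62 and 1.43 in that order (edgeR adjusted p = 0.000558, 0.00925 and 1.11e-06). Hoxa13 fell in wild-type males and Hoxa10 rose in knock-in males (edgeR adjusted p = 0.00206 and 0.0416). Of all genes 35.7%, 20.4% and 49.1% were called in these comparisons.

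In tumours the vitamin A genes went both ways. Of 11 tested, 2 rose and 4 fell in wild-type males, where 35.7% of all genes were called. In wild-type females 4 rose and 5 fell, where 49.1% were called. In knock-in males none was called with edgeR, where 20.4% of all genes were. Of the 11, 3 had an unadjusted p under 0.05, as did 35.9% of all genes, and DESeq2 called 2. The retinol transporter Stra6 rose by 2.75 (edgeR adjusted p = 0.0181, SE 0.83) in wild-type males, from 97.5 ± 73.5 to 659 ± 19.5 CPM (SD, n = 3), and rose by 5.96 (edgeR adjusted p = 0.000184, SE 1.0) in wild-type females. The retinal dehydrogenase Aldh1a1 fell by 2.92 (edgeR adjusted p = 4.15e-05, SE 0.40) and fell by 3.53 (edgeR adjusted p = 3.14e-06, SE 0.41) in that order, and the cellular retinol binding protein Rbp2 fell by 2.55 (edgeR adjusted p = 0.000570, SE 0.48) and fell by 4.01 (edgeR adjusted p = 8.27e-06, SE 0.53).

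Tumours and normal colon also differed in markers of other cells. All 10 smooth muscle markers fell in each of the 3 tumour comparisons, with medians of -3.91 for wild-type males, -2.52 for knock-in males and -4.04 for wild-type females. Of all genes 19.3%, 9.97% and 24.0% were called lower in that order, and 35.7%, 20.4% and 49.1% in either direction. In wild-type females the summed markers of 4 other cell types were higher in each tumour library than in any normal one. Their fibroblast markers summed to 1502 to 1816 CPM in normal colon and 2915 to 4364 CPM in tumours, and 6 of 8 rose and 1 fell. Endothelial markers summed to 70.2 to 98.3 and 140.5 to 219 CPM, and 3 of 5 rose. The sums of enteric neuron and glia markers were 23 to 25.4 and 45 to 67.7 CPM, although 1 of 8 rose and 3 fell. Squamous sums were 3.09 to 5.29 and 59.8 to 157 CPM, with none of 6 called by edgeR, 1 at an unadjusted p under 0.05 and 3 called by DESeq2. The sums of these 4 lists overlapped between tumours and normal colon in both male genotypes. The part of these cells in the falls of the factors was not tested. Of 13 genes expressed throughout epithelium, 7 fell in tumours of wild-type males, 3 in those of knock-in males and 9 in those of wild-type females, and 1 rose in each. Their mean log2 level changed by -0.25, -0.13 and -0.47 in that order. Set against that mean within each library, the tumour minus normal difference of Vdr was -2.36, -1.35 and -2.71, and that of Klf4 was -1.68, -0.80 and -2.3. Hnf4g stood at -1.96, -0.53 and -1.89 and Cdx1 at -1.34, -0.72 and -1.31. For these 4 the groups did not overlap. Hnf4a stood at -0.84, -0.38 and -0.98 and Cdx2 at -1.43, -0.36 and -0.96, both with overlap in knock-in males. Hes1 was at 0.23, 0.0051 and 0.44, with overlap in every pair, and the first of these turned to -0.19 with the median of the 13 genes in place of their mean. With that median the relative falls of the other factors named here were larger in wild-type males. The direction of the epithelial change in wild-type males thus depended on the use of mean or median.

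**Figure D3:**
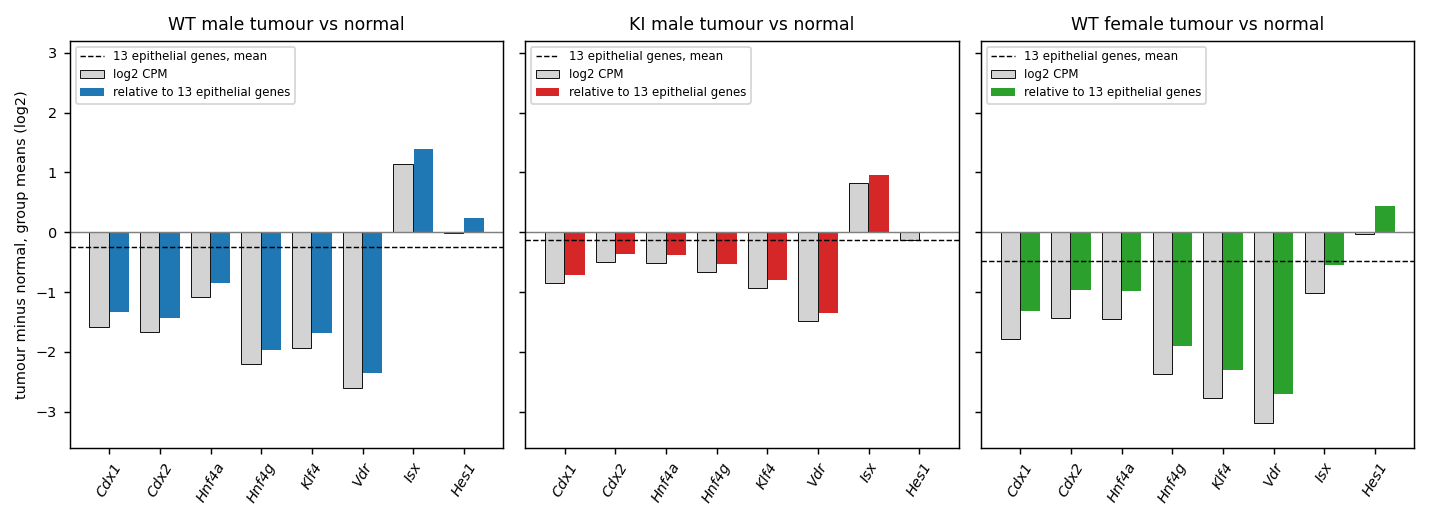
Difference of group means, tumour minus normal, on the log2 scale, for each factor itself and for the factor relative to the mean of 13 epithelial genes in the same library. The relative differences of Cdx1, Cdx2, Hnf4a, Hnf4g, Klf4 and Vdr are below 0 in each of the 3 comparisons, down to -2.71 for Vdr in wild-type females.

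Between the genotypes, male tumours differed in 2 of 8 factors. Cdx1 rose by 0.71 (edgeR adjusted p = 0.0192, SE 0.18) and Hnf4g rose by 1.21 (edgeR adjusted p = 0.0110, SE 0.27) in knock-in tumours, against 14.5% of all genes called and 9.30% called higher. Cdx1 averaged 80.4 ± 6.9 CPM (SD, n = 3) in wild-type and 131 ± 21.9 CPM in knock-in tumours, and Hnf4g 11.6 ± 2.79 and 27.7 ± 3.75 CPM. Hnf4a changed by 0.46 (edgeR adjusted p = 0.0516), Klf4 by 0.87 (0.0609), Vdr by 0.86 (0.0787), Cdx2 by 0.68 (0.149) and Isx by 0.93 (0.386). The genotypes did not overlap for 6 factors, Cdx1, Hnf4a, Hnf4g, Klf4, Vdr and Isx, nor for 36.4% of all genes. With DESeq2 5 factors were called, Hnf4a, Klf4 and Vdr in addition.

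Both calls between male tumours were lost without single libraries. Without knock-in replicate 2, the library highest in squamous markers, Cdx1 differed by 0.55 (edgeR adjusted p = 0.105) and Hnf4g by 1.07 (0.0550). Without all 5 libraries high in those markers the differences were 0.57 (0.140) and 1.09 (0.101). Cdx1 was also lost without wild-type replicate 1 (0.0781) or replicate 2 (0.0567). Summed smooth muscle markers ran from 251 to 851 CPM in wild-type and from 952 to 1115 CPM in knock-in tumours, with none of the 10 called by edgeR, 7 at an unadjusted p under 0.05 and 4 called by DESeq2. Among all genes 14.5% were called by edgeR and 32.6% had an unadjusted p under 0.05. None of the smooth muscle markers was at 0, and their part in the result was not tested. The mean of the 13 epithelial genes differed by -0.021, and relative to it Cdx1 differed by 0.72 and Hnf4g by 1.29.

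**Figure D4:**
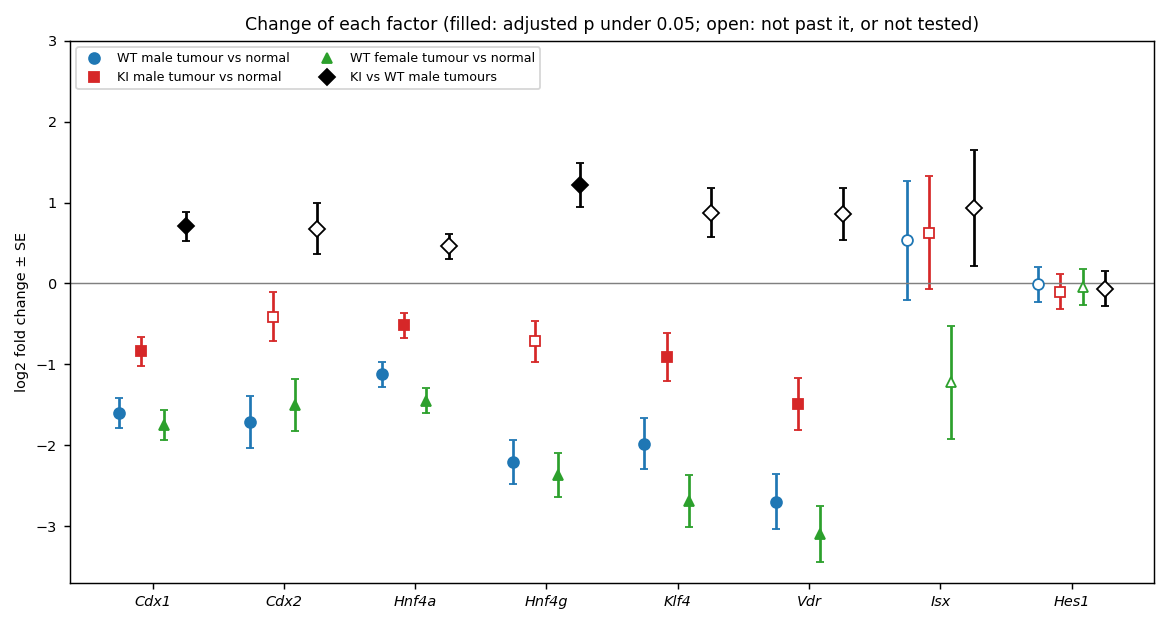
Log2 fold change with its standard error for each factor in the tumour against normal comparisons and in knock-in against wild-type male tumours, with filled symbols where the edgeR adjusted p is under 0.05. In knock-in males the changes of Cdx1, Cdx2, Hnf4a, Hnf4g, Klf4 and Vdr run from -0.41 for Cdx2 to -1.49 for Vdr, each nearer to 0 than in wild-type males.

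Whether the tumour change itself differed between the genotypes was tested as an interaction in males. None of the 8 factors passed with edgeR, against 1.51% of all genes called. An unadjusted p under 0.05 was found for 6 factors and 25.2% of all genes, and DESeq2 called 3 factors. Hnf4g came nearest, its change being higher in knock-in males by 1.49 (edgeR adjusted p = 0.0506, SE 0.37), and it passed without normal replicate 2 of wild-type males (adjusted p = 0.0388), normal replicate 2 of knock-in males (0.00572) or tumour replicate 3 of knock-in males (0.0427). Cdx1 followed at 0.77 (edgeR adjusted p = 0.0863, SE 0.25) and Cdx2 at 1.3 (edgeR adjusted p = 0.0921, SE 0.44). The comparisons within and between genotypes share their libraries and are not independent. Between the sexes of wild-type mice the tumour change was called for none of 7 tested factors with edgeR or DESeq2, with no unadjusted p under 0.05 and 1.12% of all genes called.

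Genes known to be driven by Cdx and Hnf4 factors were read as a list. Of 15 tested, 10 fell in tumours of wild-type males and 12 in those of wild-type females, where the peptidase Anpep rose. In tumours of knock-in males 3 fell. Among all genes 19.3%, 24.0% and 9.97% were called lower in that order, and 35.7%, 49.1% and 20.4% in either direction. The medians were -0.91, -1.69 and -0.27, beside 0.0054, 0.0082 and 0.0066 over all genes. The chloride exchanger Slc26a3 fell by 4.95 (edgeR adjusted p = 0.000158, SE 0.74) in wild-type males, from 518 ± 426 to 15.9 ± 8.68 CPM (SD, n = 3). It fell by 6.4 (edgeR adjusted p = 1.08e-05, SE 0.79) in wild-type females and fell by 2.14 (edgeR adjusted p = 0.0292, SE 0.64) in knock-in males. The brush border protease Mep1a fell by 3.13, fell by 3.76 and fell by 1.22 in the same order. Between male tumours 5 of the 15 rose in knock-in mice and none fell, where 14.5% of all genes were called and 9.30% called higher. The list median was 0.82 beside 0.053. The 5 were the fatty acid carrier Fabp2, the lipoprotein scaffold Apob, the mucin Muc2, the iron oxidase Heph and the guanylate cyclase Gucy2c. Heph rose by 1.15 (edgeR adjusted p = 0.00350, SE 0.19), from 53.5 ± 10.6 to 118 ± 23.6 CPM. In female normal colon 4 fell and 1 rose in knock-in mice, where 16.0% of all genes were called. Muc2 fell there by 1.99 (edgeR adjusted p = 0.00799, SE 0.45). Whether these genes changed through the factors was not tested.

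**Figure D5:**
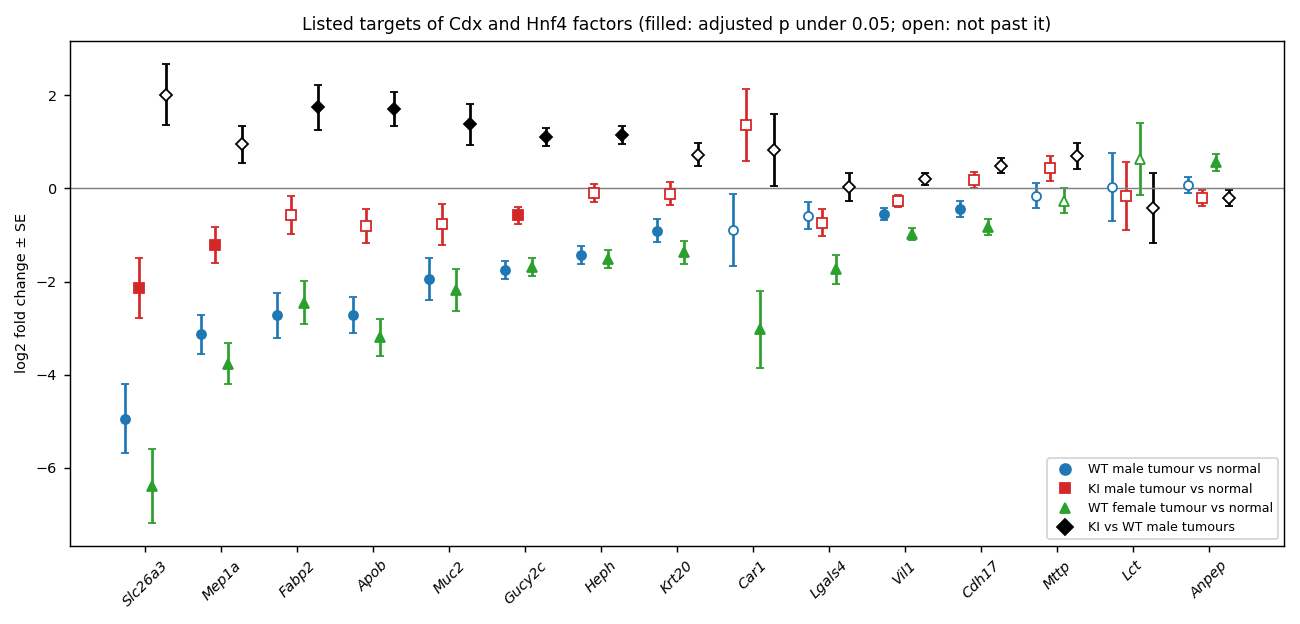
Log2 fold change with its standard error for the 15 tested targets of Cdx and Hnf4 factors, with filled symbols where the edgeR adjusted p is under 0.05. Slc26a3 has the largest falls, at -4.95 and -6.4 in wild-type males and females and -2.14 in knock-in males.

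Other transcription factors of gut epithelium fell more often than they rose in tumours against normal colon. They were read in a list of 25 tested genes that also holds the antisense RNA Hnf4aos. Of these, 10 fell and 4 rose in tumours of wild-type males. In those of wild-type females 15 fell, Hnf4aos among them, and 3 rose, and in those of knock-in males 5 fell. Of all genes 35.7%, 49.1% and 20.4% were called in that order, 19.3%, 24.0% and 9.97% as lower. The list medians were -0.29, -0.59 and -0.41, beside 0.0054, 0.0082 and 0.0066 over all genes. The nuclear receptor Nr5a2 fell by 3.59 (edgeR adjusted p = 0.000446, SE 0.62) in wild-type males and fell by 3.82 (edgeR adjusted p = 9.29e-05, SE 0.61) in wild-type females. Prdm1, a repressor known from the immature gut, rose by 1.71 (edgeR adjusted p = 0.00315, SE 0.39) in wild-type males, and the stem cell factor Ascl2 rose by 3.13 (edgeR adjusted p = 3.77e-07, SE 0.30) in wild-type females. Between male tumours 5 rose and 1 fell in knock-in mice, where 14.5% of all genes were called, with a median of 0.10 beside 0.053. Among the 5, Pparg, a nuclear receptor of fatty acid sensing, rose by 1.19 (edgeR adjusted p = 0.00350, SE 0.19).

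In normal colon Cdx2 was the tested factor called between the genotypes, in females. It read 9.75, 17 and 12.4 CPM in knock-in females, below all 3 wild-type libraries. Cdx2 fell by 1.25 (edgeR adjusted p = 0.0119, SE 0.31), so that 1 of 7 factors was called where 16.0% of all genes were. Cdx1 was at 280.3 ± 20.3 CPM (SD, n = 3) in wild-type and 293 ± 35.9 CPM in knock-in females. The ratio of Cdx1 to Cdx2 was 9.76 ± 3.03 in wild-type and 22.8 ± 3.71 in knock-in females, without overlap (two-sided exact permutation p = 0.1, adjusted 0.24). Vdr read 402, 416 and 509 CPM in knock-in females, above all wild-type libraries, and changed by 0.70 (edgeR adjusted p = 0.137, SE 0.31). Besides Cdx2 and Vdr, the groups did not overlap for Isx, nor for 37.8% of all genes. The Cdx2 call was lost without wild-type replicate 2 (adjusted p = 0.0861) and without knock-in replicate 1 (0.0563). Without the 5 libraries high in squamous markers knock-in replicate a alone is left, taken to vary like the other groups, and the difference was -0.85 (edgeR adjusted p = 0.278). The smooth muscle, fibroblast, endothelial and squamous sums given with Isx are those of the same groups, and their part here was not tested.

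In male normal colon none of the 8 factors was called between the genotypes by edgeR or DESeq2, none had an unadjusted p under 0.05, and 0.0126% of all genes were called. Cdx2 was at 33.1 ± 6.14 CPM (SD, n = 3) in wild-type and 21.4 ± 4.38 CPM in knock-in males, a change of -0.62 (SE 0.30). The ratio of Cdx1 to Cdx2 was 7.39 ± 1.06 in wild-type and 11.1 ± 1.6 in knock-in males, again without overlap and at the smallest exact permutation p of 0.1 (adjusted 0.24). The genotype effect on Cdx2 was not shown to differ between the sexes, with an interaction of -0.63 (edgeR adjusted p = 0.476, SE 0.43). In that interaction none of 7 factors was called by edgeR or DESeq2, 1 had an unadjusted p under 0.05, and 2.54% of all genes were called.

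Between females and males no tested factor was called by edgeR or DESeq2 in wild-type normal colon, wild-type tumours or knock-in normal colon, where 15.9%, 0.860% and 0.584% of all genes were called. An unadjusted p under 0.05 was found for 0, 0 and 4 factors in that order and for 5033, 3350 and 2432 of all 15936 genes, the 4 being Cdx2, Hnf4g, Klf4 and Vdr. The sexes did not overlap for Hes1 in wild-type normal colon, for no factor in wild-type tumours, and for 6 factors in knock-in normal colon, Cdx1, Cdx2, Hnf4a, Klf4, Vdr and, as a description, Isx. Among all genes 34.2%, 31.2% and 19.7% did not overlap. In wild-type normal colon Hnf4a and Hnf4g were called higher in females without male replicate 3 (edgeR adjusted p = 0.00796 and 0.0290), and in knock-in normal colon Hnf4g was without male replicate 2 (edgeR adjusted p = 0.0431).

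Levels of different genes can be set side by side only per length of transcript. Per kilobase of annotated exon, Klf4 led in normal colon of wild-type females at 257 ± 49.4 CPM per kb (SD, n = 3), before Hnf4a at 179 ± 10.4 and Cdx1 at 160.2 ± 11.6, whose spreads overlapped. Vdr followed at 48.1 ± 9.96, Hnf4g at 30.1 ± 4.28, Hes1 at 24.3 ± 6.69, Isx at 20.9 ± 13.5 and Cdx2 at 13.8 ± 5.48 CPM per kb. In tumours of wild-type females Hnf4a had the highest mean at 65.6 ± 9.12 CPM per kb. Cdx1 at 47.6 ± 13.5 and Klf4 at 39.9 ± 18.6 came next, and the spreads of these 3 overlapped. Hes1 followed at 23.7 ± 5.61, Isx at 8.92 ± 2.87, Hnf4g at 5.82 ± 1.12, Vdr at 5.62 ± 2.69 and Cdx2 at 4.81 ± 0.450. For Cdx1, Hnf4a, Hnf4g, Klf4 and Vdr the means of the 4 normal groups stood first, with neighbours that overlapped in range, and knock-in male tumours next, without overlap with the lowest normal group.

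The profiles of the factors were compared over 21 libraries. Pearson's r of log2 CPM among Cdx1, Hnf4a, Hnf4g, Klf4 and Vdr ran from 0.93 to 0.98, and from 0.56 to 0.88 after removal of group means. Cdx2 had an r of 0.55 to 0.67 with these 5, and of -0.19 to 0.22 within groups. Isx had -0.42 to -0.23, and -0.57 to -0.28 within groups. Hes1 had 0.054 to 0.27, and 0.25 to 0.64 within groups, where its highest value, with Klf4, lay in the range of the 5. The libraries of a group share their tissue and all values share the library scaling, so these are descriptions. By the same measure the genes most like Cdx1 were Acss2, Abat and B4galnt3 (0.986 to 0.989), those most like Hnf4a were Nr3c2, Gpa33 and Tep1 (0.987 to 0.989), and those most like Hnf4g were Cnnm4 and Lclat1 (both 0.987). Klf4 was nearest to Fhl1, Cyp2s1 and Ehhadh (0.986 to 0.988) and Vdr to Pkdcc, Itfg3 and Epb4.1l1 (0.987 to 0.989). Cdx2 was nearest to Cldn15, Pld1 and Mep1b (0.811 to 0.833), Isx to Samd12, Ralgapa2 and Art2a-ps (0.822 to 0.846) and Hes1 to Kctd10, Sept5 and Zfp36l2 (0.784 to 0.806), at lower values of r than the other 5.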

How the data were processed

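Ribosomal RNA was removed from colon RNA by an RNase H step, and the rest was copied from random hexamers and read on a NovaSeq instrument, per the labels' protocols. The authors deposited whole-number counts per gene from featureCounts, after Trimmomatic and HISAT2 on the build mm10, per the submitters' processing notes. The strand setting and the handling of shared reads are not given in the sources used here, so antisense and overlapping genes are uncertain. The authors' DESeq2 table was not used. In the deposited header, 2 columns of the knock-in female normal group share a name and served as unnumbered replicates a and b.

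The 8 genes and all lists were chosen with earlier results of these data known. CPM used TMM-scaled totals, and log2 CPM a prior count of 2. Tests were two-sided edgeR quasi-likelihood F tests with robust dispersions after filterByExpr, with all 21 libraries in 1 fit and a coefficient per group, for 9 pairs of groups and 3 interactions. Alternatives were DESeq2 size factors, library totals, no low-count filter, the DESeq2 Wald test, a fit of the compared groups alone, a replicate block, a covariate for library numbers from 152 on, and each replicate left out. The omission of 5 libraries high in squamous markers was chosen after seeing the data. All 8 factors are named, and of each list up to 4 called genes per comparison with the largest change. Bco1 (listed as Bcmo1), Dll1, Anpep, Gucy2c, Hoxb13, Gata4, Hnf4aos, Trpv6, S100g, Hey2, Heyl and Nrarp were also named outside that rule after their values were seen. The genes most alike were the 3 with the highest r at a mean of at least 1 CPM (for Hnf4g, the 2 highest). One gene is not reported here by name. Replicate numbers come from the library titles, which do not say what a number marks. Deviations from group means correlated at 0.169, 0.174 and 0.215 between tumours and normal colon of the same number in wild-type males. The same number gave the best match for 6 of 6 libraries there, 2 of 6 in knock-in males and 0 of 6 in wild-type females. Whether libraries of the same number came from the same mouse is not known. No replicate libraries agreed within counting noise, at a chi-square per degree of freedom of 6.6 to 63.4. On counts simulated for 15936 genes, 200 of them changed in wild-type male tumours, the test recovered 60% of changes of 1 log2 unit and 79% of changes of 2, with 8 false calls. All groups were drawn there from the means of wild-type male normal colon. In the data 35.7% of genes were called in that comparison, so the simulated rates need not hold for the comparisons reported. Promoter windows (RefSeq, GRCm38.p6) matched 5 of 8 genes, and positions and exon lengths are from GENCODE on GRCm38. R 4.3.3, edgeR 4.0.16 and DESeq2 1.42.0 were used.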

Additional observations from a re-analysis of the deposited data

How the results depend on the processing

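Of the 90 tested values of 8 factors in 12 comparisons, 90 kept their direction and side of the threshold with DESeq2 size factors, 90 with the library number covariate, 89 without the low-count filter, 88 with library totals, 85 with the compared groups alone, 85 without the 5 libraries high in squamous markers and 83 with DESeq2. Where no cause is named below, the cause was not tested. The number of factors called in tumours of knock-in males went from 4 to 2 without the 5 libraries and to 2 to 4 with a replicate left out. Between male tumours it went from 2 to 5 with DESeq2, 5 with the compared groups alone, 0 without the 5 libraries and 0 to 2 with a replicate left out. In female normal colon it went from 1 to 2 with the compared groups alone, 0 without the 5 libraries, which leaves 1 knock-in library, and 0 to 1 with a replicate left out. In the interaction of genotype and tumour it went from 0 to 1 with library totals, 3 with DESeq2 and 0 to 1 with a replicate left out, and between the sexes to 0 to 2 in wild-type and 0 to 1 in knock-in normal colon. With the replicate number as a block, over the 19 numbered libraries, the count in female normal colon went from 1 to 0, with a single knock-in library left, and Klf4 in knock-in males had an adjusted p of 0.0530. The block changed no other call of the 8 factors, and in knock-in males same-numbered libraries correlated at -0.300, 0.0624 and 0.0623. With a replicate left out, the genotype change in male normal colon ran from -0.21 to 0.13 for Cdx1, -0.28 to 0.11 for Hnf4a, -0.62 to 0.037 for Hnf4g, -0.42 to 0.17 for Klf4 and -0.57 to 0.12 for Vdr, the highest without wild-type replicate 3. Vdr between the sexes in wild-type normal colon ran from -0.35 to 0.35, Cdx1 in wild-type tumours from -0.21 to 0.17, and the Isx interaction of genotype and tumour from -1.42 to 0.90. The log2 ratio of Cdx1 to Cdx2 ran from -0.021 to 0.20 in tumours of wild-type males, from -0.69 to 0.13 in those of knock-in males and from -0.20 to 0.62 between male tumours, and that of Hnf4a to Hnf4g from -0.043 to 0.30 in tumours of knock-in males and from -0.010 to 0.14 in female normal colon. With the median of the 13 epithelial genes in place of their mean, relative tumour changes in wild-type males were -1.76 for Cdx1, -1.85 for Cdx2, -1.27 for Hnf4a, -2.39 for Hnf4g, -2.1 for Klf4, -2.78 for Vdr and -0.19 for Hes1. They were -0.86 for Cdx1 in knock-in males, and -1.67 for Cdx1, -1.35 for Hnf4a and -2.25 for Hnf4g in wild-type females. Between male tumours Cdx1 was at 0.96, Hnf4a at 0.72 and Vdr at 1.12, and Hnf4a in female normal colon at 0.042. Over the whole table, genes called went from 3246 to 724 in tumours of knock-in males and from 2315 to 1438 between male tumours with the compared groups alone, and to 856 and 55 without the 5 libraries. In female normal colon they went from 2545 to 192 with the block and 714 without the 5 libraries, and in the interaction of genotype and tumour from 240 to 1326 with DESeq2.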
